A study of Homo sapiens with 6 samples.

Results

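Tight junctions are the belts of contact that seal neighbouring epithelial cells near their apical surface and set which ions and how much water pass between cells. Claudins are their membrane proteins: some, such as CLDN2 and CLDN10, form pores for small ions, and others, such as CLDN1, tighten the barrier. Occludin lies in the same membrane strands, and the adhesion molecule JAM-A, encoded by F11R, is found at the same junctions. The scaffolds ZO-1, encoded by TJP1, and cingulin, encoded by CGN, tie the strands to the actin cytoskeleton. The proximal tubule of the kidney is a leaky epithelium in which CLDN2 is known as the pore for sodium and water. The genes described here are CLDN1, CLDN2, CLDN4, CLDN7, CLDN10, OCLN, TJP1, CGN and F11R, taken by symbol: 9 of the 38126 gene IDs in the files. All 9 were found, and 7 passed the filter on low values. CLDN7 and CLDN10 did not.

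RNA was sequenced from HK-2, a line of immortalised epithelial cells of the human proximal tubule. In the first group cells were exposed to phosphoramidon for 24 h (n = 3), and in the second they were untreated by the treatment label (n = 3). Phosphoramidon is an inhibitor of zinc metallopeptidases, among them neprilysin. All cells grew in keratinocyte serum-free medium with pituitary extract and EGF on 6-cm dishes and were used at about 90% confluency, and the labels give no dose. The letters CSE in the titles of the untreated group are not explained, so every comparison rests on the treatment label. The labels do not say whether the replicates were separate cultures. The p-values therefore set a difference only against the spread among these libraries, which could be technical.

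Values are the deposited FPKM, that is fragments scaled to gene length and to the total of the library. Whole fragments recovered from them summed to 18730693 to 24971198 in phosphoramidon libraries and 23547278 to 24869914 in untreated ones. Differences were tested with limma on log2(FPKM + 0.1) after scaling between libraries, at a Benjamini-Hochberg adjusted p of 0.05 over 16174 genes. A log2 fold change and its 95% interval, given in percent, are on that scale, phosphoramidon over untreated. Both understate the change of low genes. In this fit 33.6% of all tested genes were called (15.6% higher and 18.0% lower), and the median of all tested genes was 0.01. Without scaling between libraries 36.0% were called, 22.5% higher and 13.4% lower, and the median was 0.07.

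Markers of the differentiated proximal tubule were low. Of 8 proximal tubule markers, SLC22A6 was at 0 in every library and LRP2, the megalin gene, had 4 fragments in all. The summed level of the markers was 0.730 to 0.952 FPKM with phosphoramidon and 1.12 to 1.55 FPKM in untreated cells. Most of it was GGT1, at 0.528 ± 0.0659 FPKM with phosphoramidon and 0.833 ± 0.183 FPKM in untreated cells (log2 fold change -0.62, limma adjusted p = 0.022). GGT1 lost the call without phosphoramidon replicate 1 (-0.54, adjusted p = 0.06) or untreated replicate 2 (-0.48, adjusted p = 0.068). SLC34A1 was called lower (-0.80, adjusted p = 0.017) but passed the filter only through the untreated libraries. CUBN and SLC5A2 were not called. The epithelial marker EPCAM stood at 26.4 ± 1.06 and 26.9 ± 0.662 FPKM with phosphoramidon and in untreated cells (mean ± SD, as throughout, n = 3 each). The summed epithelial list, with EPCAM, CDH1 and the keratins KRT8 and KRT18, was 110 to 114 FPKM with phosphoramidon and 139 to 151 FPKM in untreated cells. Both keratins fell (log2 fold changes -0.57 and -0.53, limma adjusted p = 1.1e-04 and 9.3e-05). CDH1, which encodes E-cadherin, was low, at 0.501 ± 0.113 FPKM with phosphoramidon and 0.391 ± 0.0312 FPKM in untreated cells. It was not called (0.22, limma adjusted p = 0.37), and neither was EPCAM (-0.10, adjusted p = 0.13). Markers of thick limb and distal nephron summed to at most 0.0587 FPKM with phosphoramidon and 0.0590 FPKM in untreated cells, those of endothelium to at most 0.134 FPKM with phosphoramidon and 0.121 FPKM in untreated cells, and those of leukocytes to at most 0.210 FPKM with phosphoramidon and 0.0832 FPKM in untreated cells. Of the podocyte markers NPHS1 had 5 fragments in all. PODXL rose, at 1.38 ± 0.0819 FPKM with phosphoramidon and 0.548 ± 0.0521 FPKM in untreated cells (log2 fold change 1.13, limma adjusted p = 3.0e-04). The fibroblast list summed to 3.99 to 4.51 FPKM with phosphoramidon and 9.77 to 11.1 FPKM in untreated cells, nearly all of it COL1A1. COL1A1 fell, at 4.12 ± 0.241 FPKM with phosphoramidon and 10.1 ± 0.676 FPKM in untreated cells (-1.34, limma adjusted p = 5.3e-06). PODXL and COL1A1 each kept the call in all 6 fits that left out 1 library. Of the other 3 genes on the fibroblast list, PDGFRB was at 0.193 ± 0.0594 FPKM with phosphoramidon and 0.329 ± 0.0467 FPKM in untreated cells (-0.61, limma adjusted p = 0.037), and COL1A2 and PDGFRA had 10 and 6 fragments over all libraries. The PDGFRB call was lost without phosphoramidon replicate 1 or 3 (-0.49 and -0.58, adjusted p = 0.099 and 0.087) and without untreated replicate 1 or 2 (-0.52 and -0.62, adjusted p = 0.11 and 0.076). The part of these markers in the results below was not tested. In RNA from whole dishes, fewer cells of a type and less RNA per cell cannot be told apart.

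Among the 7 tested genes CLDN2 fell, OCLN and CGN rose, and CLDN1, CLDN4, TJP1 and F11R did not pass the test. Thus 2 of 7 were called higher and 1 lower, 3 in all, where the background of 33.6% called holds over all tested genes. The count is therefore no result about the family, and the single genes are described in turn. The median log2 fold change of the 7 was 0.06, but 0.14 without scaling between libraries, 0.02 without untreated replicate 2 and 0.01 without untreated replicate 3. In deposited FPKM the groups did not overlap in 5 of the 7, against 49.7% of all tested genes.

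The sequences around the starts of the 3 called genes are shown because these are the genes that changed. Each is a RefSeq window (GRCh38.p14) of 250 bases before to 50 bases after an annotated start, and such windows were matched by symbol for 8 of the 9 genes, 15 windows in all. CLDN2 has another window, and so has OCLN; the data do not show which start was used. Capitals mark letters found on either strand: the E-box CACCTG, which Snail-type repressors bind, the AP-1 letters TGANTCA, the grainyhead letters AACCNGTT, the TATA box TATAAA and CCAAT.
CLDN2 (chrX:106899914-106900213, plus strand): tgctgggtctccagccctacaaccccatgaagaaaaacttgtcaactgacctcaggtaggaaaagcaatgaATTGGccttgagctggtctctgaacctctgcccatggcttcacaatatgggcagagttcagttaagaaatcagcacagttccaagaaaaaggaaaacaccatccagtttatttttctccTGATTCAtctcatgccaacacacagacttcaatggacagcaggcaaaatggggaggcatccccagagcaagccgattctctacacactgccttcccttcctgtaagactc
OCLN (chr5:69492297-69492596, plus strand): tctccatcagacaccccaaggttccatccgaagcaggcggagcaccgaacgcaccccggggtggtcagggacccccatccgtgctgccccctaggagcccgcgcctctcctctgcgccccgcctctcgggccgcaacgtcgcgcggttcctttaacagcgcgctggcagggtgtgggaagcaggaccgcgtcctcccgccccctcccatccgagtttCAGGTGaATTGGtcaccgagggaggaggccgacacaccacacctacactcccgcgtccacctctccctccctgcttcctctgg
CGN (chr1:151511137-151511436, plus strand): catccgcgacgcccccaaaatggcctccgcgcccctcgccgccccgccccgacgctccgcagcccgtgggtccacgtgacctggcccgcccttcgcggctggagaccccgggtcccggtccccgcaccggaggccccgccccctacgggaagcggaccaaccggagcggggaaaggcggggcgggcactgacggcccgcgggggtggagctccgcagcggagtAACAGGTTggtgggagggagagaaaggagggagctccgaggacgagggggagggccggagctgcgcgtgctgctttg
The CLDN2 window held the AP-1 letters 60 bases before the start and CCAAT on the other strand. The OCLN window held an E-box 33 bases before the start, next to a CCAAT, both on the other strand. The CGN window held the grainyhead letters on the other strand, 27 bases before the start. The matches depend on the start: the other CLDN2 window held none of the 5 motifs, and the other OCLN window held 2 E-boxes and no CCAAT. They also occur in genes that were not called, as the CLDN4 window held the AP-1 letters at 2 places and 1 of the TJP1 windows an E-box. Of 34943 windows of this length in the table, 20.6% held the E-box, 7.72% the AP-1 letters, 1.73% the grainyhead letters, 11.6% the TATA box and 34.6% CCAAT. The searched motifs share no letters with each other in these 3 windows. A match describes letters only and says nothing of a factor being bound.

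CLDN2 (ENSG00000165376, chromosome X, 106900164 to 106930861 on GRCh38, plus strand), the cation and water pore of leaky epithelia, was at 4.75, 4.66 and 4.99 FPKM in phosphoramidon replicates 1 to 3, against 10.01, 10.3 and 9.73 FPKM in untreated replicates 1 to 3. All 3 phosphoramidon libraries lay far below all 3 untreated ones, and the groups did not overlap. The means were 4.80 ± 0.171 FPKM with phosphoramidon and 10.02 ± 0.294 FPKM in untreated cells, so the drop was many times the spread within either group. CLDN2 fell by 1.12 on the log2 scale (SE 0.05, limma adjusted p = 4.3e-06), and the 95% interval of the change ran from -57.3% to -50.1%. By p it ranked 24 among the 16174 tested genes. It was the only one of the 7 to pass limma's treat test against a change of 1.5-fold (adjusted p = 7.7e-04), which 0.804% of all tested genes passed. It kept its call in 14 of 14 other fits, with log2 fold changes of -1.13 to -0.99. In the genome CLDN2 lies within the span of MORC4 on the other strand, with which it shares 0 exon bases, and 341 of its 3410 exon bases are also exon of RIPPLY1, likewise on the other strand. RIPPLY1 had at most 2 fragments in any library. MORC4 itself fell by 0.27 on the log2 scale (SE 0.04, limma adjusted p = 0.0014); it was picked with this value in view.

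The 5 tested genes whose profile over the 6 libraries lay nearest to that of CLDN2 were PRAG1, STC2, PYCR1, CPEB2 and KCNQ3. Nearness was the Euclidean distance between scaled log2 values centred on each gene's mean, and it ran from 0.067 for PRAG1 to 0.109 for KCNQ3. PYCR1, an enzyme of proline synthesis, was at 8.64 ± 0.386 FPKM with phosphoramidon and 17.9 ± 0.413 FPKM in untreated cells. STC2, a secreted glycoprotein, was at 5.69 ± 0.0687 FPKM with phosphoramidon and 12.1 ± 0.444 FPKM in untreated cells. Likeness over 6 libraries in 2 groups mostly reflects the difference between groups, which is alike in size for these genes (log2 fold changes of -1.19 to -1.10).

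**Figure D1:**
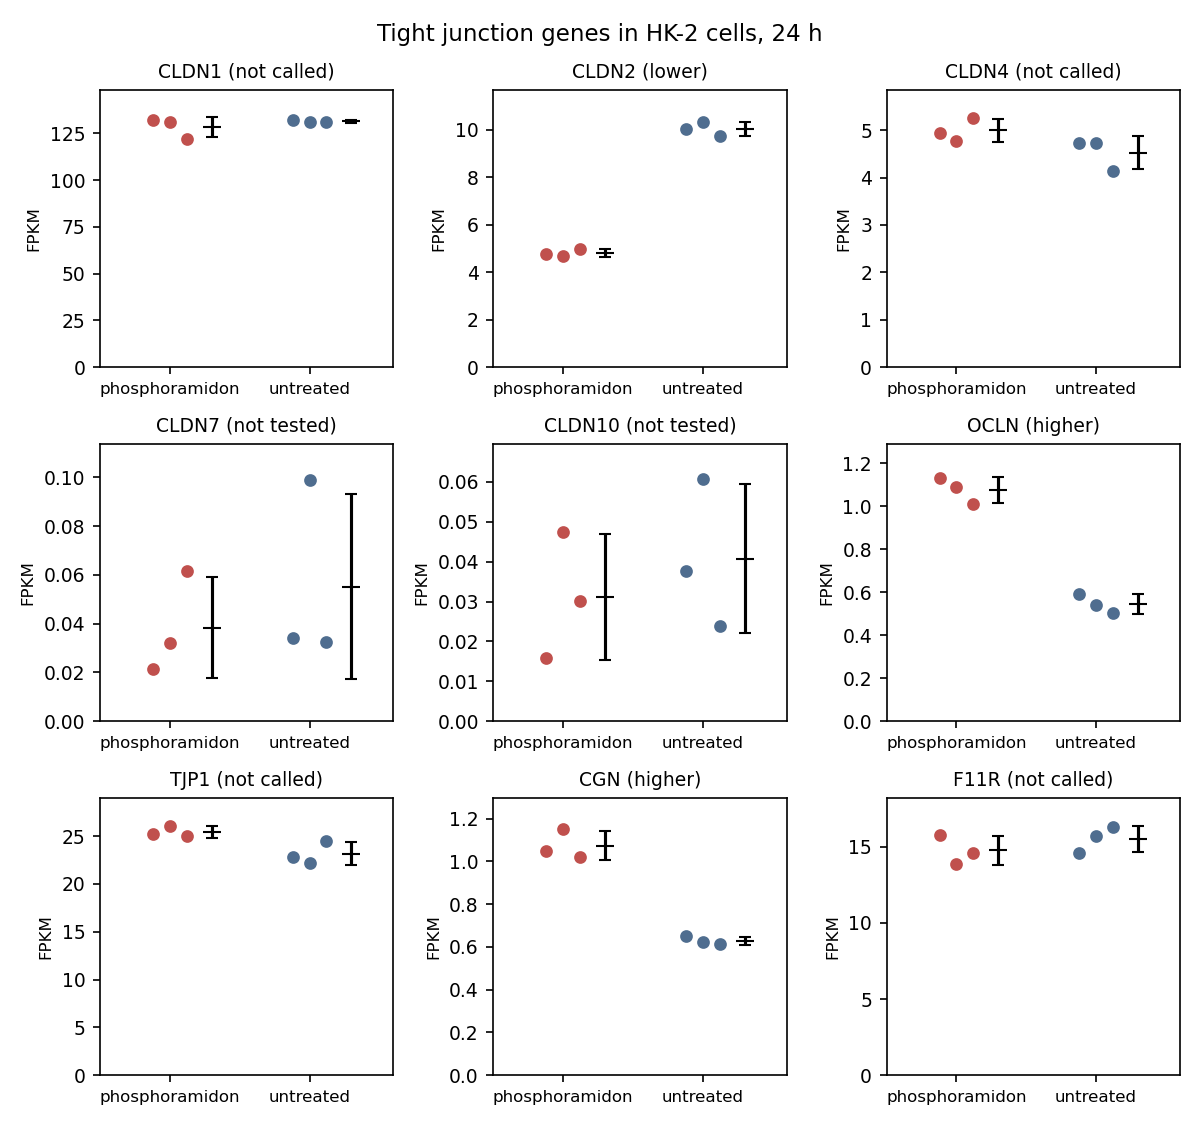
Deposited FPKM of the 9 genes (y axes from 0) in each phosphoramidon library (red, left) and each untreated library (blue, right), with the mean and SD of each group in black; titles give the limma call. CLDN2 lies at 4.66 to 4.99 FPKM with phosphoramidon and 9.73 to 10.3 FPKM in untreated cells, OCLN and CGN are higher with phosphoramidon, and CLDN7 and CLDN10 stay at or below 0.0990 FPKM.

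CLDN1 (ENSG00000163347, chromosome 3, 190305701 to 190322475, minus strand), a barrier claudin of many epithelia and of the epidermis, was by far the most abundant of the 9. It stood at 132, 131 and 122 FPKM with phosphoramidon and at 132, 131 and 131 FPKM in untreated cells, above 98.9% of tested genes in both groups. The libraries overlapped, with phosphoramidon replicate 3 the lowest. Its log2 fold change was -0.11 (SE 0.05, limma adjusted p = 0.11), with a 95% interval from -13.8% to -0.2% before adjustment. With voom, limma's method for counts, it was called at the same size (adjusted p = 0.041), where 39.3% of all tested genes were called.

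CLDN4 (ENSG00000189143, chromosome 7, 73799542 to 73832693, plus strand), a claudin of tighter distal segments, was at 4.95, 4.78 and 5.25 FPKM with phosphoramidon and 4.73, 4.72 and 4.13 FPKM in untreated cells. The deposited values did not overlap, but the nearest libraries lay close together. After scaling the log2 fold change was 0.07 (SE 0.07, limma adjusted p = 0.49), with a 95% interval from -6.1% to 17.4%. In none of the 14 other fits was it called.

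CLDN2 and CLDN4 stood at like levels with phosphoramidon and apart in untreated cells. With phosphoramidon CLDN2 was at 0.951 to 0.975 times the FPKM of CLDN4 and the library values of the pair overlapped, while in untreated cells it was at 2.11 to 2.35 times and lay above CLDN4 in every library. Relative to CLDN1, CLDN2 stood at 3.57 to 4.10% with phosphoramidon and at 7.44 to 7.88% in untreated cells. The order of the rest by mean FPKM was the same at the top in both groups: CLDN1, then TJP1 (25.4 ± 0.588 with phosphoramidon and 23.2 ± 1.17 in untreated cells), then F11R (14.8 ± 0.999 with phosphoramidon and 15.5 ± 0.863 in untreated cells), each apart from its neighbour in every library. OCLN and CGN overlapped with each other with phosphoramidon (1.08 ± 0.0645 and 1.07 ± 0.0659 FPKM). In untreated cells CGN lay above OCLN (0.629 ± 0.0184 and 0.545 ± 0.0456 FPKM), and CLDN7 and CLDN10 overlapped at the bottom in both groups.

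CLDN7 (ENSG00000181885, chromosome 17, 7259903 to 7263983, minus strand), a claudin of distal nephron and other epithelia, had 1, 2 and 3 fragments with phosphoramidon and 2, 6 and 2 in untreated cells, or 0.0215 to 0.0615 FPKM with phosphoramidon and 0.0323 to 0.0990 FPKM in untreated cells. CLDN10 (ENSG00000134873, chromosome 13, 95433604 to 95579759, plus strand), which forms ion pores in proximal tubule and thick limb from alternative first exons, had 1, 4 and 2 fragments with phosphoramidon and 3, 5 and 2 in untreated cells. At these counts no difference was detectable for either gene, and no fold is given. Of the CLDN10 exon bases 46.1% are also exon of DZIP1 on the other strand, which had 938 to 1509 fragments per library, and the handling of such overlaps is not stated, so the level of CLDN10 is uncertain. For CLDN7 10.8% of exon bases lie in an overlapping annotated gene on its own strand.

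OCLN (ENSG00000197822, chromosome 5, 69492292 to 69558104, plus strand) encodes occludin, a regulator of junction strands and of leak through them. It was at 1.13, 1.09 and 1.01 FPKM in phosphoramidon replicates 1 to 3, against 0.592, 0.542 and 0.501 FPKM in untreated replicates 1 to 3. Every phosphoramidon library lay above every untreated one. OCLN rose by a log2 fold change of 0.81 (SE 0.13, limma adjusted p = 0.0020), with a 95% interval from 42.2% to 115.0%, and was called in 14 of 14 other fits. It did not pass treat against 1.5-fold, which is not among the 14. The size depends on the pseudocount at this level: it was 0.40 with a pseudocount of 1 and 0.91 with voom. Fragments numbered 133 to 184 per phosphoramidon library and 84 to 94 per untreated library. OCLN has an annotated pseudogene on the same chromosome, OCLNP1, not analysed here, and how reads shared with it were counted is not stated, so the level of OCLN is uncertain.

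F11R (ENSG00000158769, chromosome 1, 160995211 to 161021348, minus strand), which encodes JAM-A, was at 15.8, 13.9 and 14.6 FPKM with phosphoramidon and 14.6, 15.7 and 16.3 FPKM in untreated cells. The groups overlapped. The log2 fold change was -0.15 (SE 0.06, limma adjusted p = 0.11), with a 95% interval from -18.3% to -0.1% before adjustment. It was called with voom (adjusted p = 0.032) and without phosphoramidon replicate 1 (-0.21, adjusted p = 0.030). Of its exon bases 36.6% are shared with an annotated gene on the same strand that had 2 to 14 fragments per library, so its level is uncertain.

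TJP1 (ENSG00000104067, chromosome 15, 29699367 to 29968865, minus strand), which encodes the scaffold ZO-1, was at 25.2, 26.1 and 25.0 FPKM with phosphoramidon and 22.8, 22.2 and 24.5 FPKM in untreated cells. The deposited values did not overlap, with untreated replicate 3 close to phosphoramidon replicate 3. After scaling the log2 fold change was 0.06 (SE 0.05, limma adjusted p = 0.37), with a 95% interval from -3.4% to 13.1%. In the values as deposited it was 0.14 and passed narrowly (adjusted p = 0.046).

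CGN (ENSG00000143375, chromosome 1, 151510510 to 151538692, plus strand) encodes cingulin, a junction protein that binds ZO-1 and actomyosin. It was at 1.05, 1.15 and 1.02 FPKM in phosphoramidon replicates 1 to 3, against 0.650, 0.622 and 0.615 FPKM in untreated replicates 1 to 3, and the groups did not overlap. CGN rose by a log2 fold change of 0.62 (SE 0.12, limma adjusted p = 0.0050), with a 95% interval from 27.0% to 86.3%, and was called in 14 of 14 other fits. Like OCLN, it did not pass treat against 1.5-fold, which is not among the 14. With a pseudocount of 1 the log2 fold change was 0.31, and with voom it was 0.70.

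Its paralog CGNL1, paracingulin, which binds ZO-1, fell. CGNL1 was at 27.4, 26.98 and 26.99 FPKM with phosphoramidon and 39.8, 40.1 and 37.3 FPKM in untreated cells (log2 fold change -0.59, SE 0.04, limma adjusted p = 3.7e-05). The pair moved in opposite directions from very different levels: CGNL1 exceeded CGN 23.5 to 26.5 times with phosphoramidon and 60.6 to 64.5 times in untreated cells. Summed FPKM of the pair was 28.0 to 28.5 with phosphoramidon and 37.9 to 40.7 in untreated cells, and CGN made up 3.64 to 4.08% of it with phosphoramidon and 1.53 to 1.62% in untreated cells.

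The spread within a group was small for all 7 tested genes. The coefficient of variation of FPKM ran from 2.31 to 6.77% over the phosphoramidon libraries and from 0.670 to 8.38% over the untreated libraries.

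**Figure D2:**
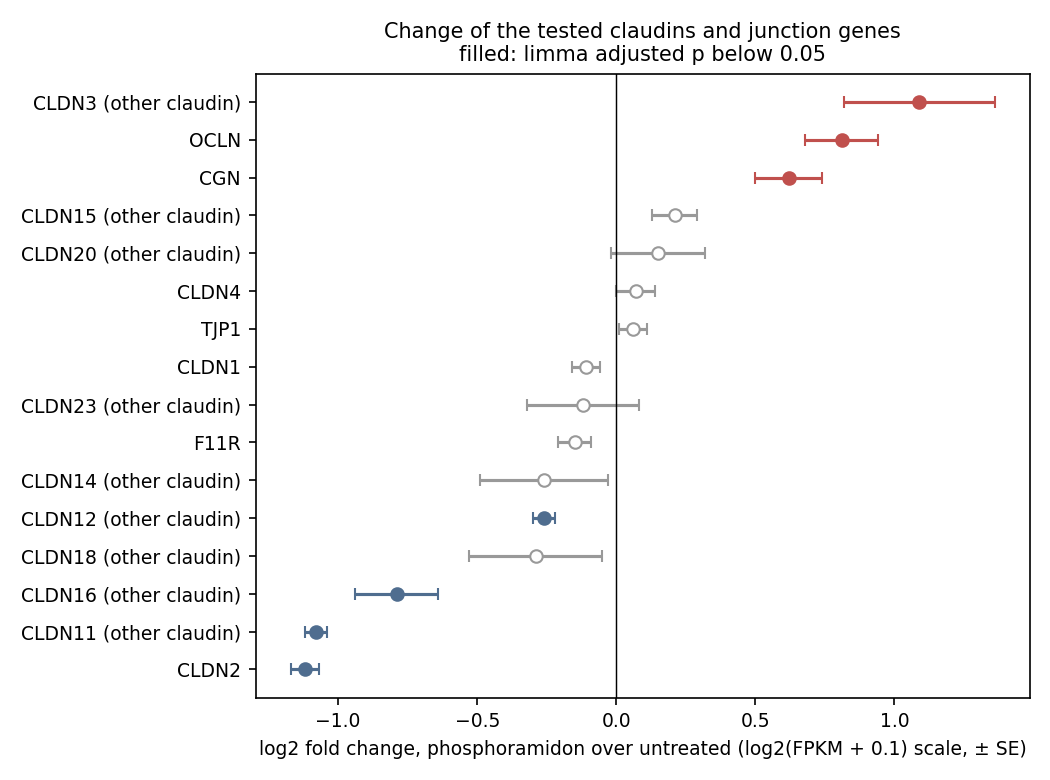
Log2 fold change with SE (x axis, phosphoramidon over untreated) of the tested claudins and junction genes, red where called higher, blue where called lower and open where not called by limma. CLDN2 at -1.12 and CLDN11 at -1.08 lie lowest, and CLDN4, TJP1, CLDN1 and F11R lie between -0.15 and 0.07. The red point of CLDN3 at 1.09 is given as a description only, as CLDN3 passed the filter only through the phosphoramidon libraries.

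Of 19 other claudin genes listed, 15 were analysed and 9 of these tested. CLDN11, CLDN12 and CLDN16 fell, CLDN3 was called higher, and 5 did not pass. Thus 4 of 9 were called where 33.6% of all tested genes were (15.6% higher and 18.0% lower). The 4 include CLDN3, which entered the test only through the group where it is high, so the count is a description only. Without phosphoramidon replicate 1 or 2 CLDN3 was not tested, and 0 of 8 were called higher and 3 lower. Of all genes tested without phosphoramidon replicate 1, 2095 of 15996 were higher and 2726 lower. Leaving out phosphoramidon replicate 2 gave 1768 of 15815 higher and 2276 lower. The list median was -0.26 beside 0.01 over all tested genes, and it moved to -0.53 with a stricter filter (4 genes tested), -0.09 with a pseudocount of 1 and -0.03 with no filter. CLDN11, known for the junctions of myelin and of the testis, was the second most abundant claudin: 23.6, 24.0 and 23.1 FPKM with phosphoramidon and 48.1, 45.8 and 48.6 FPKM in untreated cells. Its log2 fold change of -1.08 (SE 0.04, limma adjusted p = 3.2e-06) was close to that of CLDN2, and it too passed the treat test against 1.5-fold (adjusted p = 6.6e-04). Of its exon bases 18.3% lie in another annotated gene on the same strand.

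CLDN16, a magnesium and calcium pore of the thick limb, was at 0.567, 0.549 and 0.428 FPKM with phosphoramidon and 0.879, 0.861 and 1.01 FPKM in untreated cells (log2 fold change -0.79, SE 0.15, limma adjusted p = 0.0046). CLDN12 was at 13.1 ± 0.108 FPKM with phosphoramidon and 15.0 ± 0.396 FPKM in untreated cells (log2 fold change -0.26, SE 0.04, limma adjusted p = 0.0017). CLDN3, a barrier claudin, was at 1.05, 0.630 and 0.441 FPKM with phosphoramidon and 0.301, 0.226 and 0.221 FPKM in untreated cells, from 11 to 25 fragments with phosphoramidon and 7 to 9 in untreated cells. CLDN3 passed the filter only through the phosphoramidon libraries, and left the test when any of these was left out, so its call is given as a description only.

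The pore-forming CLDN15 was at 3.67 ± 0.273 FPKM with phosphoramidon and 3.004 ± 0.190 FPKM in untreated cells and did not pass (log2 fold change 0.21, limma adjusted p = 0.075), though it did without scaling between libraries (0.28, adjusted p = 0.027) and without phosphoramidon replicate 3 (0.27, adjusted p = 0.045). CLDN14, CLDN18, CLDN20 and CLDN23 lay below 1 FPKM in both groups, with log2 fold changes of -0.26, -0.29, 0.15 and -0.12 that did not pass either (limma adjusted p = 0.38 to 0.69).

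The claudin mix differed between the groups. Summed over all 20 claudin genes in the files, FPKM was 175 to 186 with phosphoramidon and 214 to 217 in untreated cells. CLDN1 made up 69.5 to 71.0% of the sum with phosphoramidon and 61.1 to 61.2% in untreated cells. The share of CLDN11 was 12.7 to 13.2% with phosphoramidon and 21.4 to 22.7% in untreated cells. CLDN2 made up 2.52 to 2.85% with phosphoramidon and 4.55 to 4.83% in untreated cells, and CLDN4 2.59 to 2.997% with phosphoramidon and 1.93 to 2.21% in untreated cells. Shares sum to a fixed total, so a higher share of CLDN1 here stands beside an FPKM that did not pass the test.

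**Figure D3:**
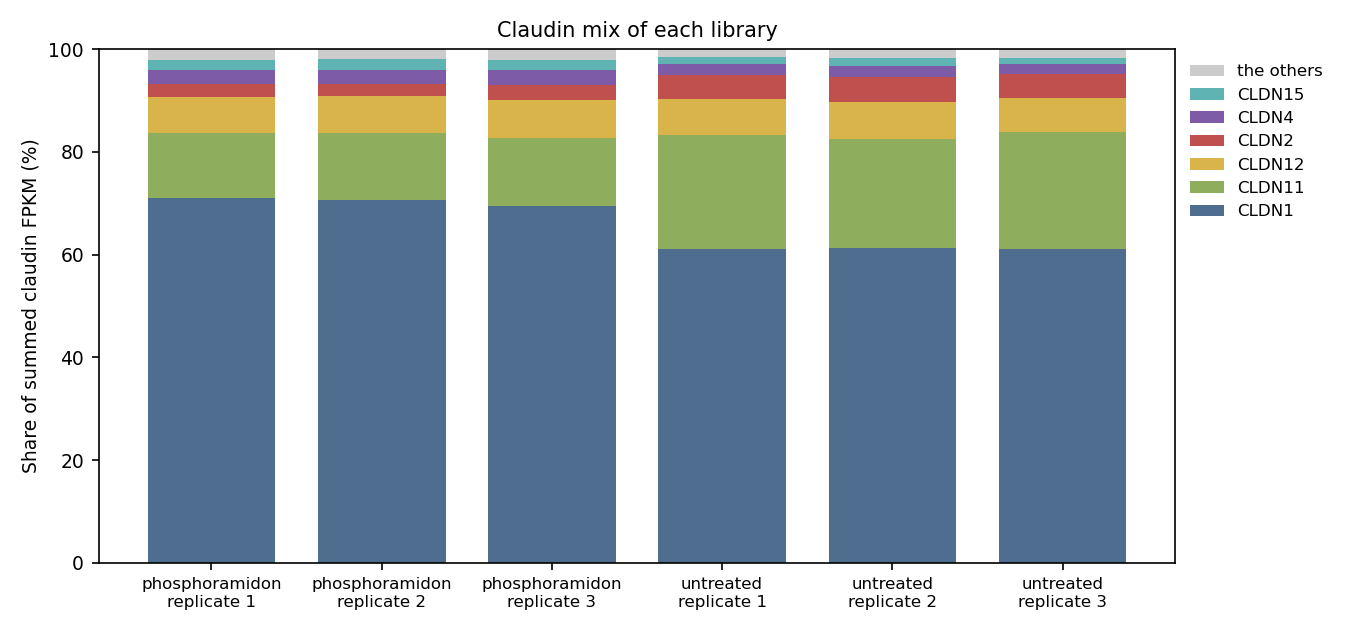
Share of each claudin in the summed FPKM of 20 claudin genes (y axis, %) for each phosphoramidon library (left) and each untreated library (right). CLDN11 and CLDN2 take smaller shares and CLDN1 a larger one in the phosphoramidon libraries.

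Among other membrane proteins of the junction 1 of 9 tested genes was called higher and 1 lower, below the 33.6% called over all tested genes. The median log2 fold change was 0.11, but 0.00 without phosphoramidon replicate 2 or untreated replicate 2 and 0.01 without phosphoramidon replicate 3. CXADR, an adhesion protein and virus receptor, was at 9.26 ± 0.399 FPKM with phosphoramidon and 7.54 ± 0.498 FPKM in untreated cells (0.22, limma adjusted p = 0.019). CRB3, an apical polarity protein, was at 4.12 ± 0.636 FPKM with phosphoramidon and 5.18 ± 0.639 FPKM in untreated cells, with groups that overlapped (-0.40, limma adjusted p = 0.041). Both calls depended on single libraries, and neither gene was called without phosphoramidon replicate 2 or untreated replicate 1. CXADR lost the call without phosphoramidon replicate 2 (0.19, adjusted p = 0.070) or untreated replicate 1 (0.18, adjusted p = 0.051). CRB3 lost it without either of phosphoramidon replicates 2 and 3 (-0.35 and -0.31, both adjusted p = 0.12), without either of untreated replicates 1 and 2 (-0.38 and -0.32, adjusted p = 0.096 and 0.11), and in the values as deposited (-0.33, adjusted p = 0.073).

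Among other scaffolds 4 of 14 tested genes were called higher and 3 lower, where 15.6% of all tested genes were higher and 18.0% lower, and the median was 0.04 (0.11 without scaling between libraries and 0.01 without phosphoramidon replicate 2). The count of higher genes changed when single libraries were left out. It was 1 without phosphoramidon replicate 2 or untreated replicate 3 and 2 without untreated replicate 2, while 3 were lower in each of these fits. Calls of higher genes fell across all tested genes too, from 2525 of 16174 with all libraries. They numbered 1768 of 15815 without phosphoramidon replicate 2, 2168 of 15883 without untreated replicate 3 and 2017 of 15860 without untreated replicate 2. Besides CGNL1, SYMPK, a junction plaque and RNA processing protein, fell (7.38 ± 0.0827 FPKM with phosphoramidon and 8.48 ± 0.378 FPKM in untreated cells, -0.27, limma adjusted p = 0.0033), and so did the scaffold MAGI1 (3.72 ± 0.0407 FPKM with phosphoramidon and 4.31 ± 0.210 FPKM in untreated cells, -0.27, adjusted p = 0.011). Its paralog MAGI3 rose (3.08 ± 0.160 FPKM with phosphoramidon and 2.23 ± 0.156 FPKM in untreated cells, 0.38, adjusted p = 0.0083).

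Among regulators of polarity and contractility 2 of 18 tested genes rose and 4 fell, near the 33.6% called over all tested genes, with a median of -0.03 (0.04 without scaling between libraries). MYLK, the kinase that drives contraction of the actomyosin ring, fell (18.3 ± 0.288 FPKM with phosphoramidon and 24.2 ± 0.472 FPKM in untreated cells, -0.47, limma adjusted p = 1.0e-04). RAB13, a GTPase of junction traffic, fell (10.4 ± 0.648 FPKM with phosphoramidon and 14.2 ± 0.710 FPKM in untreated cells, -0.52, adjusted p = 2.5e-04), and so did the polarity GTPase CDC42 (22.3 ± 0.590 FPKM with phosphoramidon and 25.4 ± 0.490 FPKM in untreated cells, -0.26, adjusted p = 0.0016). WNK1, a kinase of ion transport, rose (43.2 ± 1.82 FPKM with phosphoramidon and 32.1 ± 0.996 FPKM in untreated cells, 0.36, adjusted p = 0.0011).

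In the neighbouring adherens junctions and desmosomes 3 of 14 tested genes were called higher and 4 lower, where 15.6% of all tested genes were higher and 18.0% lower, with a median of -0.09 (-0.02 without scaling between libraries and -0.05 without untreated replicate 1). Of the 3, NECTIN1, named after its values were seen, was called in 0 of 6 fits that left out 1 library (0.38, limma adjusted p = 0.048 with all libraries, and 0.29 to 0.43, adjusted p = 0.064 to 0.14 in those fits). AFDN, or afadin, which links nectins to actin, rose (14.5 ± 0.387 FPKM with phosphoramidon and 11.2 ± 0.156 FPKM in untreated cells, 0.29, limma adjusted p = 0.0011), as did the plakophilin PKP4 (18.1 ± 0.522 FPKM with phosphoramidon and 13.5 ± 0.497 FPKM in untreated cells, 0.35, adjusted p = 8.7e-04). JUP, plakoglobin, fell (24.5 ± 0.953 FPKM with phosphoramidon and 31.0 ± 2.28 FPKM in untreated cells, -0.41, adjusted p = 0.0016), and so did the desmosomal cadherin DSC2 (3.25 ± 0.245 FPKM with phosphoramidon and 4.13 ± 0.134 FPKM in untreated cells, -0.41, adjusted p = 0.0028).

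Among transcription factors reported to act on junction genes 1 of 10 tested rose and 3 fell, where 15.6% of all tested genes were higher and 18.0% lower, with a median of -0.06 (0.01 without scaling between libraries and -0.03 without untreated replicate 1). The count of higher genes was 2 without phosphoramidon replicate 1 or 3 or untreated replicate 1, and 3 with voom. Of all tested genes 2095 of 15996, 2048 of 15919 and 2106 of 15933 were higher in those 3 fits, and 3045 of 16174 with voom. SNAI2, which encodes Slug, a repressor of junction genes in epithelia, was at 8.58, 8.44 and 7.04 FPKM with phosphoramidon and 13.2, 12.5 and 13.4 FPKM in untreated cells (-0.77, SE 0.08, limma adjusted p = 2.9e-04). SNAI1, which encodes Snail, was at 15.0, 14.9 and 13.4 FPKM with phosphoramidon and 18.4, 19.0 and 21.2 FPKM in untreated cells (-0.51, SE 0.07, adjusted p = 9.6e-04), and ZEB2, another such repressor, at 1.58 ± 0.112 FPKM with phosphoramidon and 2.03 ± 0.0153 FPKM in untreated cells (-0.41, adjusted p = 0.0099). ZEB1, a repressor of the same family named after its values were seen, was not called and lay the other way, at 2.71 ± 0.414 FPKM with phosphoramidon and 2.08 ± 0.294 FPKM in untreated cells (0.29, adjusted p = 0.12), with groups that overlapped. It was called higher with voom (0.32, adjusted p = 0.044) and without phosphoramidon replicate 1 (0.42, adjusted p = 0.035). The grainyhead factor GRHL1, from a family that activates epithelial junction genes, was at 0.942, 1.100 and 0.983 FPKM with phosphoramidon and 0.562, 0.517 and 0.557 FPKM in untreated cells (0.72, SE 0.13, adjusted p = 0.0034). In deposited FPKM the groups did not overlap in these 4 called factors, against 49.7% of all tested genes. The 4 were picked by their call on the same values, so this adds no support. HNF4A and GRHL2 had 1 and 0 fragments over all libraries. Whether any of these factors acted on the genes described was not measured.

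**Figure D4:**
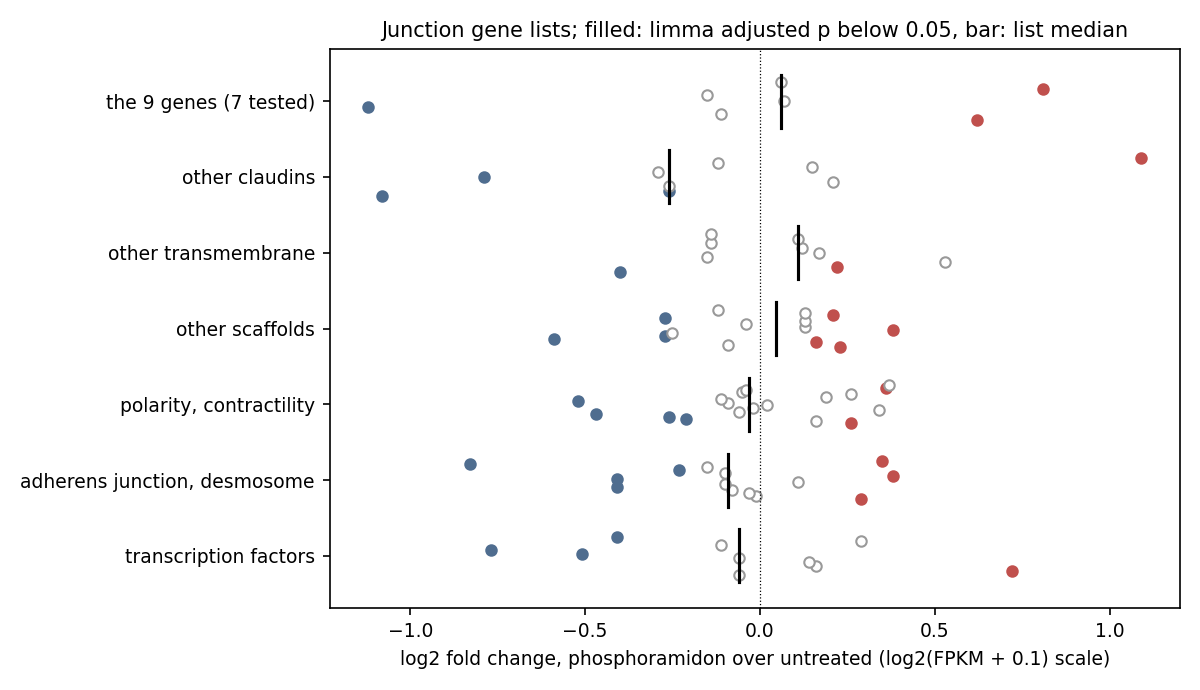
Log2 fold change (x axis) of each tested gene in the 9 genes described and in 6 lists of other junction genes and factors, with called genes filled (red higher, blue lower) and the list median as a bar. Called genes of the 9 lie at -1.12, 0.62 and 0.81, and the red point among the other claudins is CLDN3, given as a description only.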

How the data were processed

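Total RNA of 6 libraries was sequenced, and each library has 1 file. The deposited values are FPKM per Ensembl gene ID; the unit was found from the values, since times gene length they are whole multiples of a step that is fixed within a library. Per the submitters' processing notes, which give neither roles nor order, the build was GRCh38 and the tools included Trimmomatic 0.38, HISAT2 2.1.0, featureCounts 1.6.0 and DESeq2 1.22.1. Annotation release, strand setting and handling of overlaps: not given in the sources used here.

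Whole fragments were recovered from FPKM, step and length, with a tolerance of 0.05. GENCODE 29 merged exon lengths served for 79.2% of the 34623 genes that were above 0, and a length was searched for the rest, CLDN1 and F11R among them. A table of names matched 37892 of 38126 IDs.

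FPKM were divided by TMM factors (30% of M and 5% of A values trimmed) taken over the tested genes, which had at least 10 fragments in at least 3 libraries. limma 3.58.1 (R 4.3.3) was fitted to log2(FPKM + 0.1) with the group alone and a trended, robust prior. The procedure was tested on simulated data. Alternatives covered scaling, pseudocount, filter, voom, treat, each library left out and the replicate number as a block. The 9 genes and the lists were chosen with earlier results of these data known. From the lists, every tested claudin with a mean of at least 10 fragments was named, and elsewhere up to 4 called genes with the lowest adjusted p, at least 1 in each direction where any was called; the 5 genes most like CLDN2 were named as a description.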

Additional observations from a re-analysis of the deposited data

How the results depend on the processing

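The fall of CLDN2 and the rise of OCLN and CGN kept direction and call in 14 of 14 alternative fits each, that is under other scaling, pseudocounts, filters, voom, the replicate block and each library left out. The treat test is not among these 14. CLDN2 passed it, and OCLN and CGN did not. Over all tested genes 5431 of 16174 were called, 3516 of 34623 without a filter on low values and 130 of 16174 by treat against 1.5-fold. Of the 7 tested genes 3 were called, but 5 with voom, which added CLDN1 and F11R (3 lower), and 1 by treat, with 0 higher. Leaving out 1 library at a time gave 4044 to 4821 calls over all genes, 3 to 4 among the 7, 2 higher in each fit and 1 to 2 lower (F11R added without phosphoramidon replicate 1). For the lists it gave 3 to 4 other claudins and 0 to 3 other membrane proteins, with 8 or 9 tested in each. It also gave 4 to 6 of 14 scaffolds, 5 to 7 of 18 regulators of polarity, 5 to 6 of 14 adherens and desmosome genes and 4 to 5 of 10 factors. These fits tested 15815 to 15996 genes. The replicate block gave 5447 calls over all genes and changed no call among the 7 (CLDN2 -1.12, adjusted p = 1.3e-04). Under it 4 of 18 regulators of polarity, 2 of 14 adherens and desmosome genes and 3 of 10 factors were called higher. Over all genes 2554 of 16174 were higher in that fit. Of the 14 scaffolds 7 were called in the main fit, but 9 in the values as deposited and 10 with voom. Over all tested genes 36.0% were called as deposited and 39.3% with voom. Same-numbered libraries deviated together only weakly (correlations 0.111, -0.021 and -0.011), and not every library correlated best with its own number, so nothing shows that the numbers pair the samples. Depth limits CLDN7 and CLDN10, with at most 6 fragments per library.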
